A study of Danio rerio with 12 samples.

Results

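Glycolysis splits glucose into pyruvate through a chain of cytosolic enzymes, and lactate dehydrogenase then turns pyruvate into lactate and restores NAD+. The retina is known for making lactate even when oxygen is present, and photoreceptors are its main glucose consumers. Fish carry several genes for most steps, many of them pairs left by the genome duplication of teleosts, so each step can be served by a different mix of isozymes. The genes described here are those of the chain from hexokinase to lactate dehydrogenase. They were taken by exact gene symbol: 32 symbols were listed, and 25 of them were found among the 32674 genes of the expression table.

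All fish were zebrafish of the EK strain and of the third generation (F3). In the MeHg lineage, the eggs of the first generation had spent 24 h in 0.03 µM methylmercury, an organic mercury compound that crosses into tissue readily. In the control lineage they had spent it in 0 µM with ethanol, the vehicle that both lineages met. Neither lineage met added methylmercury after that, and retinas of adults were taken, so the comparison asks whether ancestral exposure goes with a different retinal transcriptome. Of 12 labelled samples, 11 were used: MeHg libraries 2 to 7 (6 libraries) and control libraries 3, 4, 5, 7 and 8 (5 libraries). The design text calls the samples biological replicates, and the sources used here do not say whether retinas were pooled, nor the sex of the fish.

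Values are FPKM, fragments scaled to transcript length and library size, so levels of different genes can be set side by side per length. The libraries held 4354466 to 6749644 assigned fragments in the MeHg lineage and 2838155 to 5663021 in the control lineage. Rod, cone, bipolar and Müller glia markers were present in every library, as a retina should show. Skeletal muscle, skin and pigment epithelium markers were present too. Control libraries 5 and 7 stood apart: the summed level of 12 oocyte markers was 1206 and 2239 FPKM there, against 1.17 to 3.77 FPKM in the MeHg libraries and 2.16 to 6.78 FPKM in the other control libraries. The sum of 6 rod markers was 5913 to 8042 FPKM in the MeHg lineage. It came to 3313 and 1916 FPKM in control libraries 5 and 7 and to 4385 to 6135 FPKM in control libraries 3, 4 and 8, and 1 of the 6 rose in the MeHg lineage. The rod sum is mostly gnat1, at 4437 to 6230 FPKM in the MeHg lineage and 1269 to 3860 FPKM in the control lineage. The rod marker cngb1a did not overlap between lineages either, at 129 to 198 FPKM (MeHg) and 36.1 to 102 FPKM (control). The values of saga, pde6a, pde6b and cnga1 overlapped, with saga at 239 to 373 FPKM (MeHg) and 199 to 891 FPKM (control). Of 3 cone markers 1 rose, gnb3b, and the values of gnat2 and cnga3a overlapped between lineages. Of 5 bipolar markers 1 rose, and of 4 Müller glia markers 1 fell. Over all genes tested between the lineages 5.47% rose and 3.5% fell, and each of these marker counts rests on 1 gene. What part the make-up of the tissue has in the values below was not tested. Differences that moved by more than 1.5 times without these libraries are given both ways for the genes described in full and for the isozyme shares.

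Of the 32 listed genes, hk2, gpib, pfklb, pkma, pkmb, pklr and ldha were not found by symbol. Pyruvate kinase is therefore not described by any matched gene, and shares within a step are shares of the matched genes only. One row without a symbol in the table is named pklr, the liver and red cell pyruvate kinase, in the reference list of names (ENSDARG00000042010). It was low, at 0.698 to 1.35 FPKM in the MeHg lineage and 0.937 to 5.31 FPKM in the control lineage. All 25 matched genes passed the filter of a mean of at least 0.5 FPKM.

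Glycolytic genes were among the abundant transcripts of these retinas. Of the 25 genes, 14 averaged over 100 FPKM in the MeHg lineage and 14 in the control lineage. Among all 32674 genes of the table, 778 did so in the MeHg lineage and 830 in the control lineage. The highest in both lineages was gapdhs, one of the genes for glyceraldehyde-3-phosphate dehydrogenase, the enzyme that makes the NADH of the pathway. It was followed by ldhba, the heart-type lactate dehydrogenase subunit, and aldocb, a gene for aldolase C, the aldolase of brain in mammals. The order of this pair differed between lineages, with ldhba above aldocb in the MeHg lineage and aldocb above ldhba in the control lineage. In the control lineage their means, 698 ± 159 and 967 ± 417 FPKM (SD, n = 5), lay within the spread of the libraries. The lowest gene was aldoca, the other aldolase C gene, at 0.683 ± 0.247 FPKM in the MeHg lineage and 1.09 ± 1.67 FPKM in the control lineage (SD, n = 6 and 5).

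**Figure D1:**
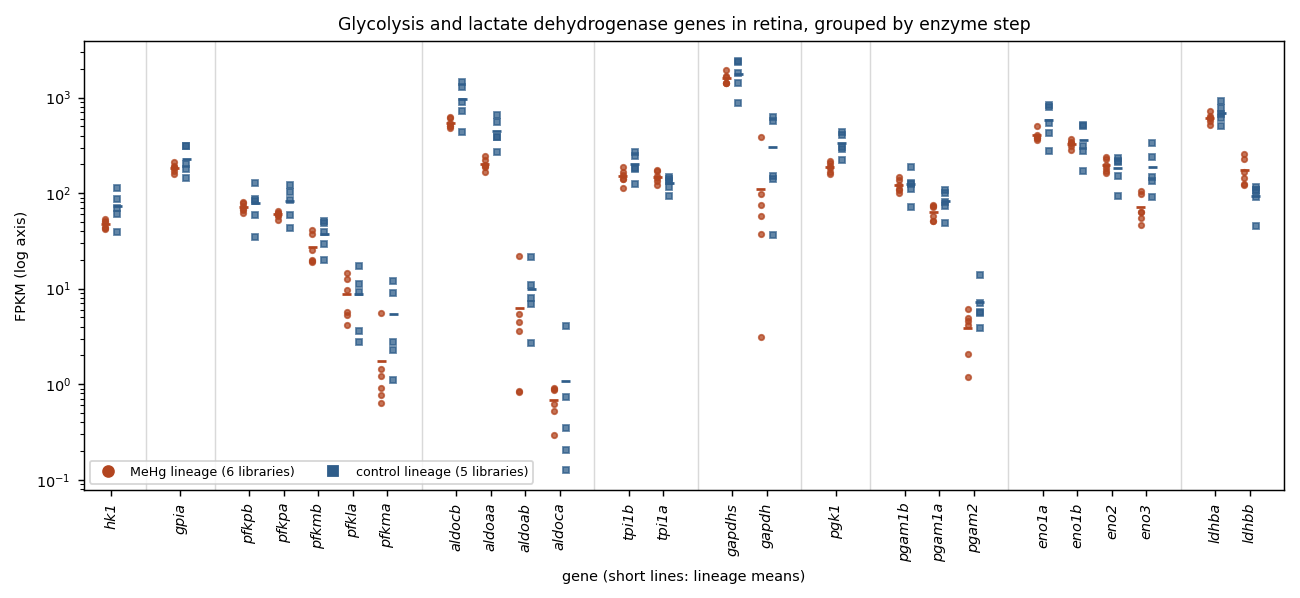
FPKM of each of the 25 genes on a log axis, grouped by enzyme step, with 1 point per library (circles, 6 MeHg libraries; squares, 5 control libraries) and a short line at each lineage mean. The control points of the abundant genes spread more widely than the MeHg points, and gapdh spans the widest range in the MeHg lineage, 3.12 to 388 FPKM.

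Summed over the 25 genes, the level was 5324 ± 467 FPKM in the MeHg lineage (SD, n = 6) and 7009 ± 1921 FPKM in the control lineage (SD, n = 5). Control library 4 was highest at 9258 FPKM and control library 7 lowest at 4462 FPKM, so the MeHg libraries, at 4775 to 6035 FPKM, lay inside the control range. The FPKM total of all genes also differed, from 566740 in control library 7 to 860441 in control library 3. As a share of that total, the 25 genes held 0.714% to 0.908% in MeHg libraries and 0.787% to 1.18% in control libraries. By this share MeHg libraries 2, 3, 4 and 6 were below every control library. In 20 of the 25 genes (80.0%) the coefficient of variation was larger in the control lineage, as it was in 66.41% of all genes tested. Control libraries 5 and 7 were both below the other control libraries in 16 of the 25 genes (64.0%), against 27.39% of all genes tested. They were both above the others in 4 genes, pfkma, aldoab, gapdh and eno3, against 17.54% of all genes tested. In whole-retina RNA, a smaller number of cells of a type and less RNA per cell cannot be told apart, and the cell make-up of these libraries was not measured.

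Between the lineages, 3 of 25 glycolytic genes fell and 0 rose (limma, adjusted p under 0.05). The 3 that fell were aldoaa, pgk1 and eno3. That is 12.0% of the 25, where 3.5% of all 20320 genes tested were lower, 5.47% higher and 8.98% either, so the excess rests on a count of 3. Values of the lineages did not overlap in 3 of the 25 genes, lower in aldoaa and pgk1 and higher in ldhbb, against 7.52% of all genes tested. The median log2 difference of the 25 genes was -0.36, against 0.02 over all genes tested, and 20 of the 25 differences were below 0. At an unadjusted p under 0.05 there were 7 of the 25 genes (28.0%), near the 24.1% of all genes tested. Without control libraries 5 and 7, 6 of 25 genes fell and 0 rose, and the median difference was -0.52. That is 24.0% lower, where 4.65% of the 19697 genes tested were lower, 3.64% higher and 8.28% either. Those 6 were aldoaa, pgk1, hk1, pfkpa, aldocb and eno1a, so 2 genes were lower with and without these libraries.

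**Figure D2:**
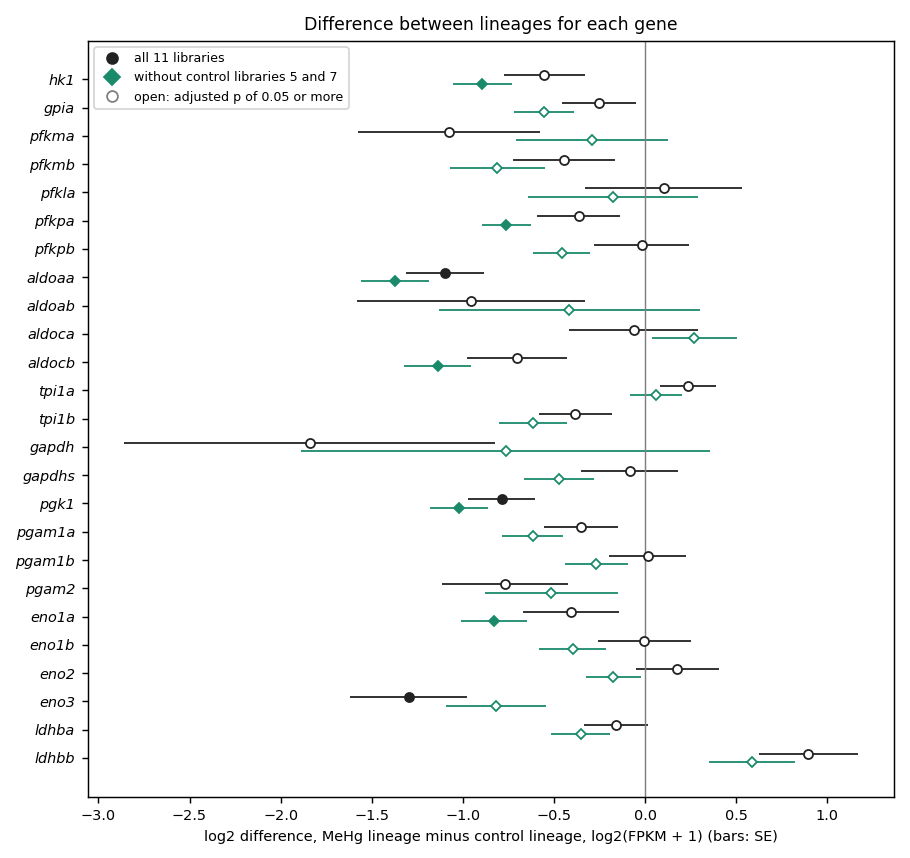
Log2 difference (MeHg lineage minus control lineage, log2(FPKM + 1) scale) of each gene with its standard error, for all 11 libraries (circles) and without control libraries 5 and 7 (diamonds). Filled symbols passed an adjusted p of 0.05, which are aldoaa, pgk1 and eno3 with all libraries. Most diamonds lie left of their circles, while those of pfkma, aldoab, aldoca, gapdh, pgam2 and eno3 lie to the right.

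Hexokinase traps glucose in the cell by phosphorylating it. In the MeHg lineage hk1 (ENSDARG00000039452) had a lowest value of 41.8, a median of 47.1 and a highest value of 53.4 FPKM, against 86.3, 114, 60.2, 38.8 and 69.1 FPKM in control libraries 3, 4, 5, 7 and 8. Control library 7 lay below every MeHg library and the other 4 control libraries above all of them, so the groups overlapped. The log2 difference was -0.55 ± 0.22 (SE; limma adjusted p = 0.156). Without control libraries 5 and 7 it was -0.89 ± 0.16 (SE; limma adjusted p = 0.00662), and without control library 7 alone -0.76 (limma adjusted p = 0.0160).

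Glucose-6-phosphate isomerase converts the glucose ester to the fructose ester, and its matched gene was gpia (ENSDARG00000012987). It had a lowest value of 159, a median of 184 and a highest value of 212 FPKM in the MeHg lineage, against 312, 309, 177, 143 and 204 FPKM in control libraries 3, 4, 5, 7 and 8. Control libraries 3 and 4 were above every MeHg library, control library 7 was below them all, and the lineages overlapped (log2 difference -0.25 ± 0.20, SE; limma adjusted p = 0.470). Leaving out control libraries 5 and 7 gave -0.55 (limma adjusted p = 0.0669).

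Phosphofructokinase makes the committed step of the pathway and is its main point of control. Its platelet-type genes pfkpb and pfkpa led, with pfkpb the higher mean in the MeHg lineage (71.5 against 60.0 FPKM for pfkpa) and pfkpa in the control lineage (82.7 against 78.8 FPKM for pfkpb); the muscle-type gene pfkmb came next, and the liver-type gene pfkla and the other muscle-type gene pfkma were low. For pfkpb (ENSDARG00000012801) the MeHg lineage had 62.1 at the lowest, 70.5 at the median and 80.8 FPKM at the highest, against 87.9, 129, 58.7, 34.9 and 83.5 FPKM in control libraries 3, 4, 5, 7 and 8. The control values lay on both sides of the MeHg values, and the log2 difference came to -0.02 ± 0.26 (SE, by limma, adjusted p = 0.970), or -0.46 without control libraries 5 and 7 (limma adjusted p = 0.114). The log2 difference of pfkpa was -0.36 ± 0.23 (SE; limma adjusted p = 0.345), and without control libraries 5 and 7 it was -0.76 ± 0.14 (SE; limma adjusted p = 0.00599). The means of pfkmb were 27.2 ± 9.74 and 37.7 ± 13.3 FPKM in the MeHg and control lineages, and those of pfkla 8.70 ± 4.32 and 8.81 ± 5.92 FPKM (SD, n = 6 and 5).

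Aldolase cleaves the six-carbon sugar into a pair of trioses, and its gene aldoaa, of the aldolase A type that serves muscle in mammals, showed the smallest p of the 25. In the MeHg lineage aldoaa (ENSDARG00000011665) had a lowest value of 169, a median of 195 and a highest value of 244 FPKM, against 550, 664, 385, 271 and 385 FPKM in control libraries 3, 4, 5, 7 and 8. Every MeHg library was below every control library, which held in the lower direction for 2.72% of all genes tested. The log2 difference was -1.10 ± 0.21 (SE; limma adjusted p = 0.00682), or 0.467 of the control level on the log2(FPKM + 1) scale. Leaving out control libraries 5 and 7 gave -1.37 ± 0.19 (SE; limma adjusted p = 0.00138).

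The leading aldolase gene, aldocb (ENSDARG00000019702), had a lowest value of 486, a median of 526 and a highest value of 634 FPKM in the MeHg lineage, against 1289, 1470, 724, 441 and 909 FPKM in control libraries 3, 4, 5, 7 and 8. Again control library 7 was below the MeHg libraries and the other 4 above them. The log2 difference was -0.70 ± 0.27 (SE; limma adjusted p = 0.142). It was -1.14 ± 0.18 (SE; limma adjusted p = 0.00367) without control libraries 5 and 7, and -0.96 (limma adjusted p = 0.0119) without control library 7 alone. The remaining aldolase genes, aldoab and aldoca, were low, at 0.819 to 22.2 FPKM and 0.291 to 0.905 FPKM in the MeHg lineage and 2.71 to 21.2 FPKM and 0.128 to 4.04 FPKM in the control lineage.

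Triosephosphate isomerase interconverts the trioses, and a pair of genes, tpi1b and tpi1a, carried the step. The values of tpi1b (ENSDARG00000040988) in the MeHg lineage were 113 at the lowest, 148 at the median and 188 FPKM at the highest, against 271, 247, 185, 126 and 180 FPKM in control libraries 3, 4, 5, 7 and 8. Only control libraries 3 and 4 were above all MeHg libraries. The log2 difference of tpi1b was -0.38 ± 0.20 (SE, limma adjusted p = 0.264), or -0.62 without control libraries 5 and 7 (limma adjusted p = 0.0720). The means of tpi1a were 149 ± 20.8 FPKM in the MeHg lineage and 127 ± 22.1 FPKM in the control lineage (SD, n = 6 and 5). Its log2 difference was 0.23 ± 0.15 (SE, limma adjusted p = 0.367), or 0.06 without control libraries 5 and 7 (limma adjusted p = 0.868).

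Of the glyceraldehyde-3-phosphate dehydrogenase genes, gapdhs (ENSDARG00000039914) belongs to the type that is confined to sperm in mammals. It had a lowest value of 1418, a median of 1543 and a highest value of 1955 FPKM in the MeHg lineage, against 2411, 2379, 1427, 881 and 1833 FPKM in control libraries 3, 4, 5, 7 and 8. The lineages overlapped and the log2 difference was -0.08 ± 0.27 (SE; limma adjusted p = 0.872), or -0.47 without control libraries 5 and 7 (limma adjusted p = 0.191). The other gene, gapdh (ENSDARG00000043457), the general housekeeping form of mammals, had the widest ratio of highest to lowest library of the 25. Its values in MeHg libraries 2 to 7 were 388, 97.7, 57.2, 74.5, 36.9 and 3.12 FPKM, against 36.4, 150, 626, 570 and 140 FPKM in control libraries 3, 4, 5, 7 and 8. These ranges overlapped widely, and the log2 difference came to -1.84 ± 1.02 (SE, by limma, adjusted p = 0.286). It was -0.77 without control libraries 5 and 7 (limma adjusted p = 0.778).

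Phosphoglycerate kinase makes the first ATP of the pathway, and its gene fell in the MeHg lineage. In that lineage pgk1 (ENSDARG00000054191) had a lowest value of 161, a median of 187 and a highest value of 218 FPKM, against 411, 437, 288, 222 and 305 FPKM in control libraries 3, 4, 5, 7 and 8. No MeHg value reached a control value, although the highest MeHg library and control library 7 were close. The log2 difference was -0.79 ± 0.18 (SE; limma adjusted p = 0.0185), and -1.02 ± 0.16 (SE; limma adjusted p = 0.00299) without control libraries 5 and 7.

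Phosphoglycerate mutase shifts the phosphate group within phosphoglycerate. Its leading gene pgam1b (ENSDARG00000014068) had a lowest value of 101, a median of 116 and a highest value of 148 FPKM in the MeHg lineage, against 129, 188, 110, 71.2 and 124 FPKM in control libraries 3, 4, 5, 7 and 8. The lineages overlapped throughout (log2 difference 0.01 ± 0.21, SE; limma adjusted p = 0.974), and without control libraries 5 and 7 the difference was -0.27 (limma adjusted p = 0.447). The means of pgam1a were 63.4 ± 11.01 FPKM in the MeHg lineage and 83.1 ± 23.6 FPKM in the control lineage, and those of pgam2, the muscle form in mammals, 3.83 ± 1.86 and 7.25 ± 3.96 FPKM (SD, n = 6 and 5).

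Each of the 4 enolase genes was at 45.9 FPKM or more in every library. The leading gene eno1a (ENSDARG00000022456) had a lowest value of 365, a median of 382 and a highest value of 509 FPKM in the MeHg lineage, against 838, 805, 425, 277 and 539 FPKM in control libraries 3, 4, 5, 7 and 8. Control libraries 3, 4 and 8 were above all MeHg libraries and control library 7 below them. The log2 difference was -0.41 ± 0.26 (SE; limma adjusted p = 0.363), and -0.83 ± 0.18 (SE; limma adjusted p = 0.0178) without control libraries 5 and 7. The log2 differences of eno1b and of eno2, the neuronal enolase of mammals, were -0.01 and 0.18, and with all libraries neither passed. Without control libraries 5 and 7 they were -0.40 and -0.18 (limma adjusted p = 0.247 and 0.591).

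The muscle enolase gene eno3 (ENSDARG00000039007) was lower in the MeHg lineage, with a lowest value of 45.9, a median of 63.6 and a highest value of 107 FPKM, against 90.9, 134, 239, 333 and 149 FPKM in control libraries 3, 4, 5, 7 and 8. Of the 6 MeHg libraries 4 were below every control library, and control libraries 5 and 7 were the highest of all. The log2 difference was -1.30 ± 0.32 (SE; limma adjusted p = 0.0253). It was -0.82 ± 0.27 without control libraries 5 and 7 and did not pass (SE; limma adjusted p = 0.107). The call was also lost without control library 5 alone or without MeHg library 5, 6 or 7, with limma adjusted p of 0.0711, 0.0602, 0.0605 and 0.0563.

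Lactate dehydrogenase closes the pathway, and its matched genes were the paralogs ldhba and ldhbb. For ldhba (ENSDARG00000019644) the MeHg lineage had a lowest value of 523, a median of 616 and a highest value of 718 FPKM, against 776, 923, 617, 506 and 668 FPKM in control libraries 3, 4, 5, 7 and 8. The lineages overlapped (log2 difference -0.16 ± 0.17, SE; limma adjusted p = 0.606), and the difference was -0.35 without control libraries 5 and 7 (limma adjusted p = 0.246). Its paralog ldhbb (ENSDARG00000071076) stood at 122, 145, 126, 225, 255 and 167 FPKM in MeHg libraries 2 to 7, against 107, 109, 91.5, 45.1 and 117 FPKM in control libraries 3, 4, 5, 7 and 8. All MeHg libraries were above all control libraries, which held in the higher direction for 4.8% of all genes tested. It did not pass (0.89 ± 0.27 on the log2 scale, SE; limma adjusted p = 0.0621). It passed with a filter at 5 FPKM, with quantile normalization and with the scaled fragment numbers (limma adjusted p = 0.0477, 0.0218 and 0.0374). It did not with a pseudocount of 0.1, no filter or array weights (limma adjusted p = 0.059, 0.0805 and 0.0767). Over libraries with shared numbers, paired or not, it did not pass either (limma adjusted p = 0.299 and 0.142). The same held for all 11 fits without 1 library (limma adjusted p up to 0.1305). The difference was 0.58 without control libraries 5 and 7 (limma adjusted p = 0.189).

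The mix of isozymes within a step was measured as the share that the leading gene, the one with the highest mean over the study's libraries, held of the step's summed FPKM, which does not move when all genes of a step change by the same factor. There were 7 steps with several matched genes. In 4 of them the leading gene held more than 50% in every library: aldocb, gapdhs, pgam1b and ldhba. The leading genes pfkpb and eno1a averaged 42.3% and 40.1% of their steps in the MeHg lineage and 36.0% and 42.6% in the control lineage. In the control lineage pfkpa held more of its step than pfkpb, at 38.5%. For enolase, eno3 held more than eno1a in control library 7 (38.0% against 31.6%). For triosephosphate isomerase, tpi1b held 46.0%, 49.6% and 49.3% in MeHg libraries 3, 4 and 6, where tpi1a held more.

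The share differed between lineages in 4 of the 7 steps (two-sided exact permutation test over libraries, Benjamini-Hochberg adjusted over the 7 steps). For triosephosphate isomerase, tpi1b held 50.3% ± 2.76 of the step in the MeHg lineage and 60.8% ± 3.56 in the control lineage (SD, n = 6 and 5). The MeHg libraries ranged from 46.0% to 53.9% and the control libraries from 57.1% to 65.5%, with no overlap. The difference was -10.5 percentage points (exact permutation p = 0.00216, the smallest that 462 splits can give; adjusted p = 0.0152). For lactate dehydrogenase, ldhba held 78.2% ± 5.67 in the MeHg lineage and 88.3% ± 2.51 in the control lineage (SD, n = 6 and 5). Here too the ranges did not overlap, at 70.8% to 84.0% in MeHg libraries and 85.1% to 91.8% in control libraries. The difference was -10.1 percentage points (exact permutation p = 0.00649, adjusted p = 0.0152).

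In the other 2 steps pgam1b and pfkpb took a larger share in the MeHg lineage. The share of pgam1b was 64.3% ± 2.61 in the MeHg lineage and 57.5% ± 2.89 in the control lineage, a difference of 6.75 percentage points (SD, n = 6 and 5; exact permutation p = 0.0108, adjusted p = 0.0189). The share of pfkpb was 42.3% ± 1.52 in the MeHg lineage and 36.0% ± 3.50 in the control lineage, a difference of 6.26 percentage points (SD, n = 6 and 5; exact permutation p = 0.00649, adjusted p = 0.0152). The share of aldocb was 72.3% ± 4.23 and 66.6% ± 4.04 in the MeHg and control lineages (exact permutation adjusted p = 0.0758). That of eno1a differed by -2.50 percentage points (exact permutation adjusted p = 0.459). It was -0.58 without control library 3, -1.17 without control library 4 and -5.27 without control library 7.

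When control libraries 5 and 7 were left out, the differences of tpi1b, ldhba, pgam1b and pfkpb were -11.5, -9.32, 5.71 and 4.38 percentage points. They had the signs seen with all libraries, but none passed (exact permutation adjusted p = 0.0556, 0.0625, 0.0667 and 0.0556, where 84 splits give no unadjusted p below 0.0119). The differences of eno1a and aldocb were then -7.45 and 2.86 percentage points (exact permutation adjusted p = 0.0556 and 0.347), and 5 of the 6 MeHg libraries were below every remaining control library for eno1a. That of aldocb was 7.25 without MeHg library 2 alone and passed (exact permutation adjusted p = 0.0139). The share of gapdhs was 93.6% ± 7.61 in the MeHg lineage and 83.1% ± 16.9 in the control lineage (SD, n = 6 and 5; exact permutation adjusted p = 0.245). Its difference was 10.5 percentage points with all libraries and -1.54 without control libraries 5 and 7.

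**Figure D3:**
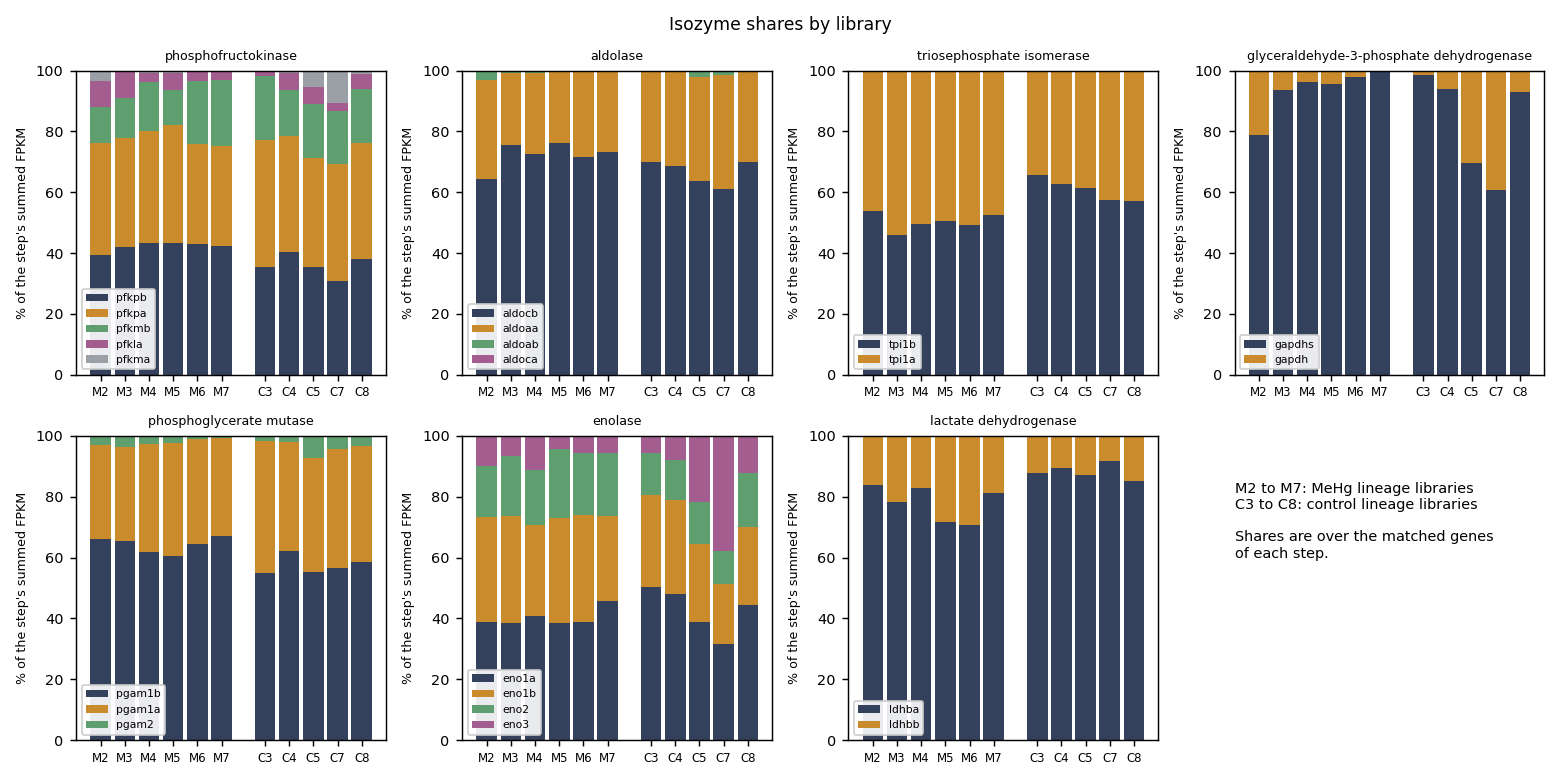
Share of each matched gene in the summed FPKM of its enzyme step, in percent, with 1 stacked bar per library (M2 to M7, MeHg lineage; C3 to C8, control lineage). The dark bar at the bottom is the leading gene: tpi1b is at 46.0% to 53.9% in the MeHg bars and 57.1% to 65.5% in the control bars, and gapdhs is lowest in M2 (78.7%), C5 (69.5%) and C7 (60.7%).

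The genes gapdh, aldoab and pfkma were highest in the libraries with the highest muscle marker sums. The summed level of 21 skeletal muscle markers was highest in MeHg library 2 (776 FPKM) and control libraries 5 and 7 (926 and 445 FPKM). These 3 libraries also had the 3 highest values of gapdh (388, 626 and 570 FPKM in MeHg library 2 and control libraries 5 and 7), of aldoab (22.2, 21.2 and 11.05 FPKM in that order) and of pfkma (5.54, 9.10 and 12.1 FPKM). Control library 4, whose muscle sum of 417 FPKM was close to that of control library 7, had lower values. They were 150 FPKM for gapdh, 8.06 FPKM for aldoab and 2.73 FPKM for pfkma. At the other end, MeHg library 7 had the lowest muscle sum (32.1 FPKM) and the lowest gapdh (3.12 FPKM). For eno3 the pattern differed: MeHg library 2 was at 97.6 FPKM, below control libraries 4 and 8, while control libraries 5 and 7 were highest (239 and 333 FPKM). It differed too for pgam2, pfkmb and aldoaa, also of muscle types. The gene pgam2 was highest in control library 5 (14.0 FPKM). In MeHg library 2 and control library 7 it was at 4.89 and 5.60 FPKM, below control library 8 (7.06 FPKM). The highest pfkmb was in control library 3 (51.7 FPKM) and the highest aldoaa in control library 4 (664 FPKM). The muscle sum ranged from 32.1 to 776 FPKM in the MeHg lineage and from 119 to 926 FPKM in the control lineage. None of the 21 markers was called higher or lower between lineages. Those averaging under 0.5 FPKM, such as tnni2a.4 and pvalb1, were not tested. The sum of 5 skin markers ranged from 188 to 2902 FPKM in the MeHg lineage. In the control lineage it ranged from 1169 to 5425 FPKM and was highest in control library 8. The part of muscle, skin or oocyte RNA in the values of gapdh, aldoab, pfkma and eno3 was not tested. The counting error of these low genes is large: the lowest values of pgam2, aldoab and pfkma rested on 5, 6 and 8 fragments, and that of gapdh on 18.

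**Figure D4:**
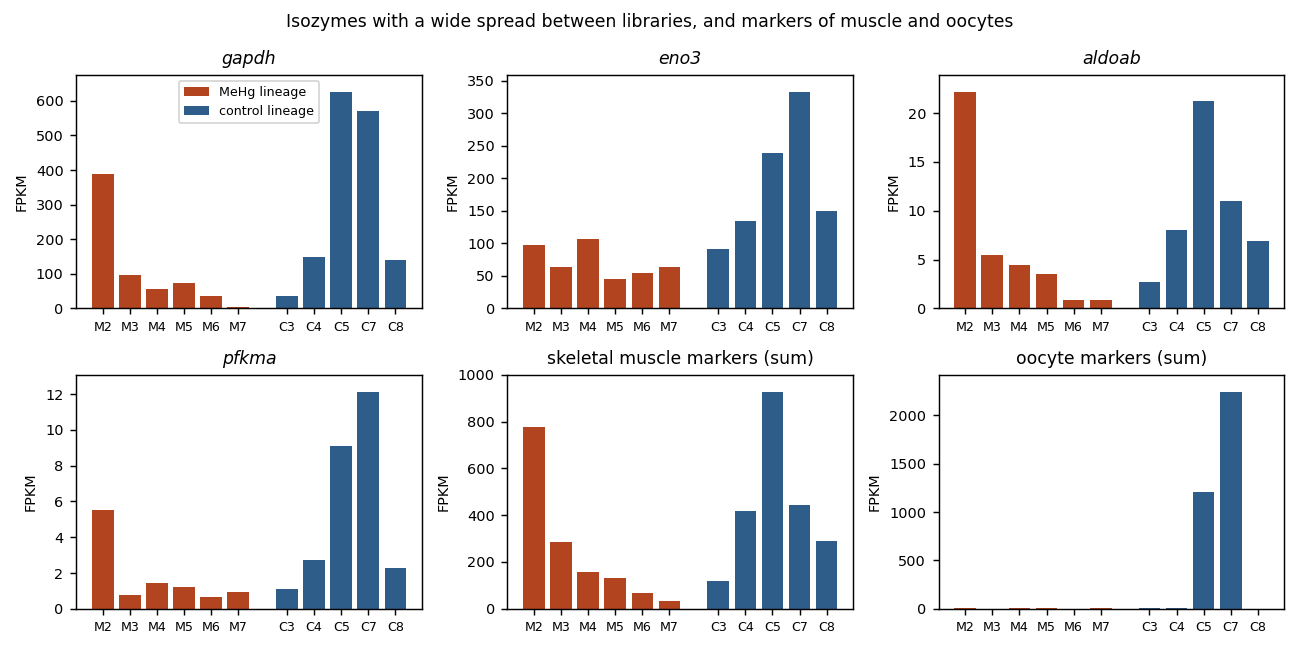
FPKM per library (bars; M2 to M7, MeHg lineage; C3 to C8, control lineage) of gapdh, eno3, aldoab and pfkma and the summed FPKM of skeletal muscle and oocyte markers. The bars of gapdh, aldoab and pfkma are tallest in M2, C5 and C7, where the muscle sum is 776, 926 and 445 FPKM, and the oocyte sum is high only in C5 and C7.

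Around the pathway, 102 symbols were listed, and 81 were matched. They were of glucose and lactate transport, glycogen, the pentose phosphate branch, gluconeogenesis, regulators, the pyruvate gate of the mitochondrion and redox shuttles. The counts include dld, a symbol that in zebrafish names a Notch ligand and not an enzyme, which did not pass (log2 difference 0.80, limma adjusted p = 0.0740). Of the 73 tested, 3 rose and 6 fell (4.1% and 8.2%, against 5.47% and 3.5% of all genes tested), and their median log2 difference was -0.22. Among 71 tested without control libraries 5 and 7, 2 rose and 10 fell, where 3.64% of all genes were higher and 4.65% lower in that fit. No gene of gluconeogenesis (6 tested) or of the shuttles (11 tested) passed with all libraries.

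The 6 that fell were pgd, rpia, slc2a1b, slc16a8, pgm1 and pdk2a. The pentose phosphate branch makes NADPH. Of its 7 tested genes 2 fell, where 3.5% of all genes tested were lower. They were pgd, which encodes 6-phosphogluconate dehydrogenase, and rpia, ribose-5-phosphate isomerase. For pgd the MeHg lineage had a lowest value of 27.8 and a highest of 50.9 FPKM, against 236, 211, 112, 82.8 and 110 FPKM in control libraries 3, 4, 5, 7 and 8, with no overlap (log2 difference -1.86 ± 0.27, SE; limma adjusted p = 0.00108). The levels of rpia were 3.43 to 6.31 FPKM in the MeHg lineage and 8.499 to 13.1 FPKM in the control lineage (log2 difference -0.98 ± 0.18, SE; limma adjusted p = 0.00403).

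Among transporters, slc2a1b, a gene for the glucose transporter GLUT1, was at 18.8 ± 5.93 FPKM in the MeHg lineage and 39.6 ± 10.9 FPKM in the control lineage (SD, n = 6 and 5; limma adjusted p = 0.0175). Its paralog slc2a1a did not pass with all libraries (log2 difference -0.85, limma adjusted p = 0.0891), but did without control libraries 5 and 7 (-1.31, limma adjusted p = 0.00419). The lactate transporter gene slc16a8, known from the pigment epithelium, was at 0 to 0.363 FPKM in the MeHg lineage, against 23.3, 14.7, 7.90, 7.81 and 2.55 FPKM in control libraries 3, 4, 5, 7 and 8 (log2 difference -3.12, limma adjusted p = 0.000366). Of 6 pigment epithelium markers 1 rose and 1 fell, against 5.47% and 3.5% of all genes tested. Their sum was 771 to 1018 FPKM in the MeHg lineage and 856 to 2490 FPKM in the control lineage. Among them rpe65a was at 73.1 to 147 FPKM in the MeHg lineage and 291 to 1090 FPKM in the control lineage, with no overlap. The other markers overlapped between lineages, such as dct at 77.9 to 145 FPKM (MeHg) and 35.5 to 124 FPKM (control). The part of pigment epithelium RNA in the slc16a8 values was not tested. The gene pgm1, phosphoglucomutase, which links glycogen to glycolysis, was at 25.1 ± 2.90 FPKM in the MeHg lineage and 44.5 ± 9.35 FPKM in the control lineage (SD, n = 6 and 5; limma adjusted p = 0.00595).

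Of 11 tested regulators of the pathway's control points, 2 rose and 0 fell, where 5.47% of all genes tested were higher and 3.5% lower. Without control libraries 5 and 7, 1 rose and 0 fell, against 3.64% and 4.65% of all genes in that fit. The bifunctional enzymes of the PFKFB family set fructose-2,6-bisphosphate, the activator of phosphofructokinase. The 2 genes that rose with all libraries belong to them. For pfkfb1 the MeHg libraries 2 to 7 were at 46.3, 25.6, 30.5, 64.2, 94.2 and 66.4 FPKM, against 11.1, 8.19, 15.2, 11.8 and 20.0 FPKM in control libraries 3, 4, 5, 7 and 8, with no overlap (log2 difference 1.88 ± 0.33, SE; limma adjusted p = 0.00326). The smaller transcript pfkfb2a was at 4.28 ± 1.71 FPKM in the MeHg lineage and 1.67 ± 0.331 FPKM in the control lineage (SD, n = 6 and 5; limma adjusted p = 0.0187, and 0.0578 without control libraries 5 and 7). The most abundant gene of the family, pfkfb3, did not pass (log2 difference 0.64, limma adjusted p = 0.254). Nor did pfkfb4a, pfkfb4b and pfkfb2b, with log2 differences of -0.52, -0.24 and 0.06 (limma adjusted p = 0.126, 0.862 and 0.873).

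The pyruvate gate list held 17 tested genes: 1 rose and 1 fell, where 5.47% of all genes tested were higher and 3.5% lower. At this entry of pyruvate into the mitochondrion, pdk2a, a kinase that switches pyruvate dehydrogenase off, was at 4.93 ± 3.05 FPKM in the MeHg lineage and 16.6 ± 5.53 FPKM in the control lineage (SD, n = 6 and 5; limma adjusted p = 0.0135). Its values overlapped, with a highest MeHg value of 8.84 FPKM and a lowest control value of 7.63 FPKM. The gene of the opposing phosphatase, pdp1, was at 17.3 ± 5.04 FPKM in the MeHg lineage and 8.84 ± 1.59 FPKM in the control lineage (SD, n = 6 and 5; limma adjusted p = 0.0269). The call of pdp1 was lost in 7 of 11 fits without 1 library, with limma adjusted p up to 0.0662. The other kinase genes pdk1, pdk2b, pdk3a and pdk4 did not pass, with log2 differences of -0.15, -0.70, 0.12 and -0.44. Nor did the other phosphatase gene, pdp2 (log2 difference -0.04). None of the pyruvate dehydrogenase subunit genes pdha1a, pdha1b, pdhb and dlat passed, with log2 differences of -0.17, 0.39, -0.03 and -0.11.

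**Figure D5:**
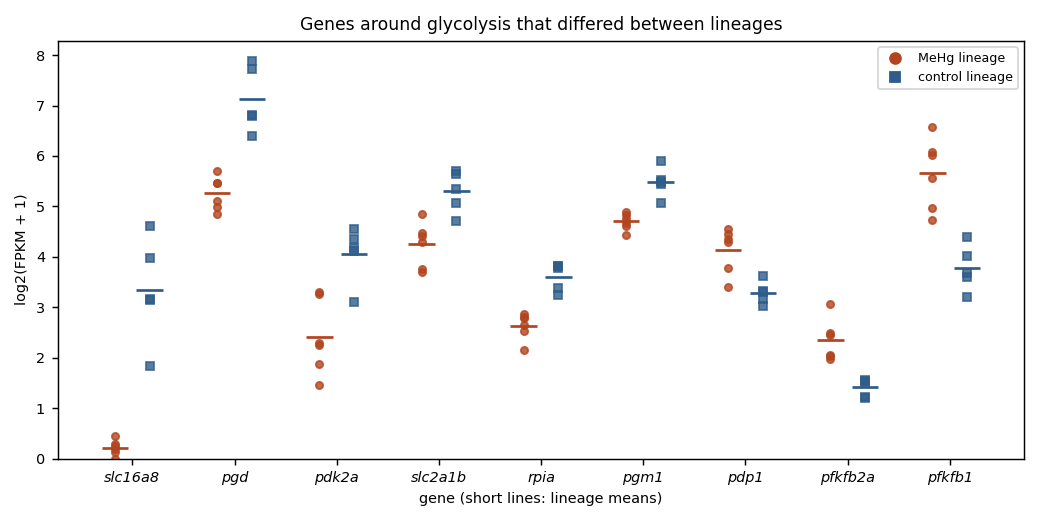
Level, as log2(FPKM + 1), of the 9 genes around glycolysis that passed between lineages, with 1 point per library (circles, MeHg lineage; squares, control lineage) and a short line at each lineage mean. For slc16a8 the MeHg points lie near 0, and for pfkfb1, pfkfb2a and pdp1 the MeHg mean is the higher one.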

How the data were processed

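RNA of adult F3 retinas was sequenced as TruSeq libraries, per the labels' protocols. The submitters' processing notes name the build Zv9 and the tools Cuffnorm, TopHat, cutadapt, FastQC and CASAVA 1.8.2. Neither annotation nor strand setting nor the treatment of fragments shared by paralogs is given in the sources used here, so values of near-identical copies are uncertain. The authors deposited FPKM per gene. Their companion deposited table is a signal, fragment numbers divided by a size factor per library: within a tolerance of 0.01, 98.32% to 98.64% of its values per library were whole multiples of 1 step. The rest were fractional, so no count test was run, and depths are sums of these steps. A column without a name (1 in both tables) was left out, and control sample 1 was not analysed here.

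Genes averaging 0.5 FPKM or more were fitted by limma 3.58.1 (R 4.3.3) on log2(FPKM + 1), MeHg minus control lineage (eBayes with trend, Benjamini-Hochberg over 20320 genes, threshold 0.05); this scale understates the change of low genes. The labels name no batch. The genes and lists were chosen with earlier results of these data known. For glycolytic genes that passed and the leading gene of each step, every control value was given, with the lowest, median and highest MeHg value. Of the surrounding genes, up to 6 per direction that passed were named. Other genes were named after their values were seen. Alternatives changed the pseudocount, filter, scaling, table, weights, pairing and the libraries used. Same-numbered libraries were not taken as pairs.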

Additional observations from a re-analysis of the deposited data

Results flagged for a closer look

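A library stood far from the rest of its lineage in 8 of 64 groups of values examined. The nominal rate of the rule is 1 in 20 independent groups, and its rate on values such as these was not measured. Because the groups share libraries and genes, 8 of 64 cannot be compared with that rate. MeHg library 2 accounts for 5 of the 8. It had the highest values of its lineage for pfkma (5.54 FPKM), aldoab (22.2 FPKM) and gapdh (388 FPKM). It had the lowest shares for pfkpb (39.4% of its step) and gapdhs (78.7% of its step). Its muscle marker sum, 776 FPKM, was also the highest of the MeHg lineage, and the part of muscle RNA in these values was not tested. MeHg library 7 was highest of its lineage for eno1a, both in level (509 FPKM) and in share of the enolase step (45.9%). Control library 5 was highest of its lineage for aldoca, at 4.04 FPKM.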

How the results depend on the processing

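The count of glycolytic genes that passed (3) was 3 or 4 with a pseudocount of 0.1, no filter, a filter at 5 FPKM, quantile normalization or scaled fragment numbers, 5 with array weights, 6 without control libraries 5 and 7, and 2 to 5 when single libraries were left out. aldoaa and pgk1 passed without any single library. Over the 8 libraries with numbers shared by both lineages, 1 gene (aldoaa) passed, and 0 with those numbers as a replicate block; all genes then gave 784 and 199 calls, against 1824, and the surrounding genes 4 and 2, against 9. Same-numbered libraries correlated at -0.23 to -0.01 in their deviations from the lineage means, none best with its own number. With 4 pairs, and with control libraries 5 and 7 correlated at 0.61 with each other, this check cannot decide whether a number marks a pair. Without single libraries all genes gave 1177 (without control library 5) to 1905 calls and the surrounding genes 8 to 11. The number of steps whose isozyme share passed (4) was 4 or 5 without single libraries and 0 without control libraries 5 and 7 or with the replicate block, where 4 pairs cannot pass.

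The genes whose sign turned passed in no fit. Without control libraries 5 and 7 they were pfkla -0.18, aldoca 0.27, pgam1b -0.27 and eno2 -0.18, and the gapdhs share difference was -1.54. With quantile normalization pfkpb was 0.03 and eno1b 0.073, with scaled fragment numbers pfkpb 0.004, aldoca 0.24 and eno1b 0.007, with a pseudocount of 0.1 aldoca 0.22, with array weights pgam1b -0.10, and over libraries with shared numbers, paired or not, pfkpb 0.023. Without single libraries the ranges were pfkla -0.19 to 0.39, pfkpb -0.28 to 0.19, aldoca -0.22 to 0.32, gapdhs -0.32 to 0.046, pgam1b -0.17 to 0.18, eno1b -0.24 to 0.16 and eno2 -0.04 to 0.28. The cause was not tested. The count test was not run. Depth limits pgam2, aldoab, pfkma and aldoca, whose lowest values rest on under 10 fragments.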
